A study of Mus musculus with 10 samples.

Results

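Matrix metalloproteinases (MMPs), ADAMs, ADAMTS proteins and the tissue inhibitors of metalloproteinases (TIMPs) form the main extracellular metalloproteinase system of mammals, and 53 of the 25232 genes listed for the mouse spinal cord belonged to them by the rule used here. The rule took genes whose symbol begins with Mmp or Timp and a digit, with Adam and a digit, or with Adamts, left out Mmp9 and Timp1, and required a base mean of at least 10. The base mean is the authors' mean, over all libraries, of the counts of a gene divided by the size factors of DESeq2. Of 83 such genes in the table, 53 reached the minimum, 30 did not, and 14 of these 30 were listed at 0. The share that reached it, 63.9%, can be set beside 63.1% (15918 genes) of the whole table.

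The RNA came from the spinal cord of female mice of 90 days, 5 wild type (WT) and 5 SOD1 G93A, with the lumbar region named in the methods. The labels give the strain as C57BL/6, and the methods name the line B6.Cg-Tg(SOD1-G93A)1Gur/J, kept on C57BL/6J. The mutant form of human SOD1, which causes amyotrophic lateral sclerosis in some families, is expressed in these mice from a high-copy transgene, and the WT mice were littermates. Each value below pools both genotypes in 1 mean per gene, so a level describes these 10 mice together and says nothing of a difference between WT and SOD1 G93A mice. No spread between mice and no depth per library could be computed, and the levels therefore stand without an error. Neighbours in an order of levels cannot be said to differ beyond their spread.

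As background, MMPs cleave collagens, other matrix proteins and many cell-surface proteins, and those of the membrane type do so while anchored to the cell. ADAMs are transmembrane proteins, and the catalytic ones release the outer part of other membrane proteins, a step known as shedding. ADAMTS proteins are secreted, bind the matrix, and include the enzymes that cut the large proteoglycans around neurons and glia. ADAMTS-like (ADAMTSL) proteins have the same matrix-binding parts and no protease domain. TIMPs block the active site of these enzymes. In the nervous system the group is known for shaping the perineuronal matrix, for shedding of the amyloid precursor protein and of cytokines, and for a few ADAMs that act as receptors without cleaving anything.

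The catalytic members hold a zinc ion with 3 histidines, next to a glutamate that activates water. The motif searched was histidine, glutamate, any 2 residues, histidine, any 2 residues, glycine, any 2 residues, histidine. Proteins were translated from 1 GENCODE M21 transcript a gene, and the codons below were cut from those transcripts, in the build GRCm38 that mm10 denotes. Capitals mark the codons of the 3 histidines and the glutamate, and 4 shedding ADAMs are shown first because they carry the complete site. The stretch of Adam10 spans exons 9 and 10 (chr9:70754296-70761585, plus strand, intron included in the range), that of Adam17 lies in exon 12 (chr12:21336732-21336764, minus strand), that of Adam9 in exon 11 (chr8:24990326-24990358, minus strand) and that of Adam15 in exon 11 (chr3:89344780-89344812, minus strand).
Adam10: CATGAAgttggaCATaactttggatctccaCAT
Adam17: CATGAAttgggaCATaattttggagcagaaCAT
Adam9: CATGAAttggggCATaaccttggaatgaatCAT
Adam15: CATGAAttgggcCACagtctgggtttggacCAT

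Of the 15 ADAM members, 5 lacked the motif: Adam11, Adam22, Adam23, Adam18 and Adam32. Their stretches aligned with the site of Adam10 are shown because 3 of these genes stand among the highest ADAM members. They lie in exon 13 of Adam23 (chr1:63547763-63547795, plus strand), exon 13 of Adam11 (chr11:102773613-102773645, plus strand), exon 13 of Adam22 (chr5:8143064-8143096, minus strand), exon 11 of Adam18 (chr8:24647848-24647880, minus strand) and exon 11 of Adam32 (chr8:24901501-24901533, minus strand). Adam22 kept 1 of the 4 residues, a histidine, and the other four genes kept 0.
Adam23: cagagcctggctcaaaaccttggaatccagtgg
Adam11: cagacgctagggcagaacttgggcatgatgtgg
Adam22: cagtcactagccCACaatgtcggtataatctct
Adam18: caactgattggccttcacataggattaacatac
Adam32: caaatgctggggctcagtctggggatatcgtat

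All 12 MMP members held the motif. Mmp24 (exon 5, chr2:155807427-155807459, plus strand) and Mmp14 (exon 5, chr14:54437627-54437659, plus strand) are shown as the highest membrane-type MMP and the best known one. Among the 18 ADAMTS members, 12 had the glycine, 5 had an asparagine in its place (Adamts1, Adamts4, Adamts9, Adamts15 and Adamts20) and Adamts8 had a serine. Adamts4 (exons 3 and 4, chr1:171253210-171253915, plus strand), Adamts5 (exons 2 and 3, chr16:85878015-85887826, minus strand) and Adamts8 (exons 3 and 4, chr9:30952721-30953378, plus strand) show the 3 forms, and in these genes the site is split by an intron and the printed run is that of the spliced transcript. Adamts1 and Adamts4 are known as active proteases, so the form with asparagine was counted as a site as well as the form with glycine.
Mmp24: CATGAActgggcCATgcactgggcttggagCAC
Mmp14: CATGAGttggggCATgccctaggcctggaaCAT
Adamts4: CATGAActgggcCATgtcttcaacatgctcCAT
Adamts5: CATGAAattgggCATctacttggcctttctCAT
Adamts8: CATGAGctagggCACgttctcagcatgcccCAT

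Levels of different genes were compared as the base mean per kb of the longest annotated transcript, the level from here on. The highest member was Timp2, with a level of 2802, and the lowest Adamts7, with 2.91. The level was held by few genes. Timp2 alone had 22.8% of the summed level, the 4 highest members 46.4% and the 10 highest 74.4%. The 27 lowest members had 4.91% together. Together the 53 genes took 0.267% of the summed base means of the table. Among coding genes, 14658 reached a base mean of 10, and their median level was 169.6. Of the members, 16 lay above that median, 2 above the 90th percentile and 26 below the 25th.

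**Figure D1:**
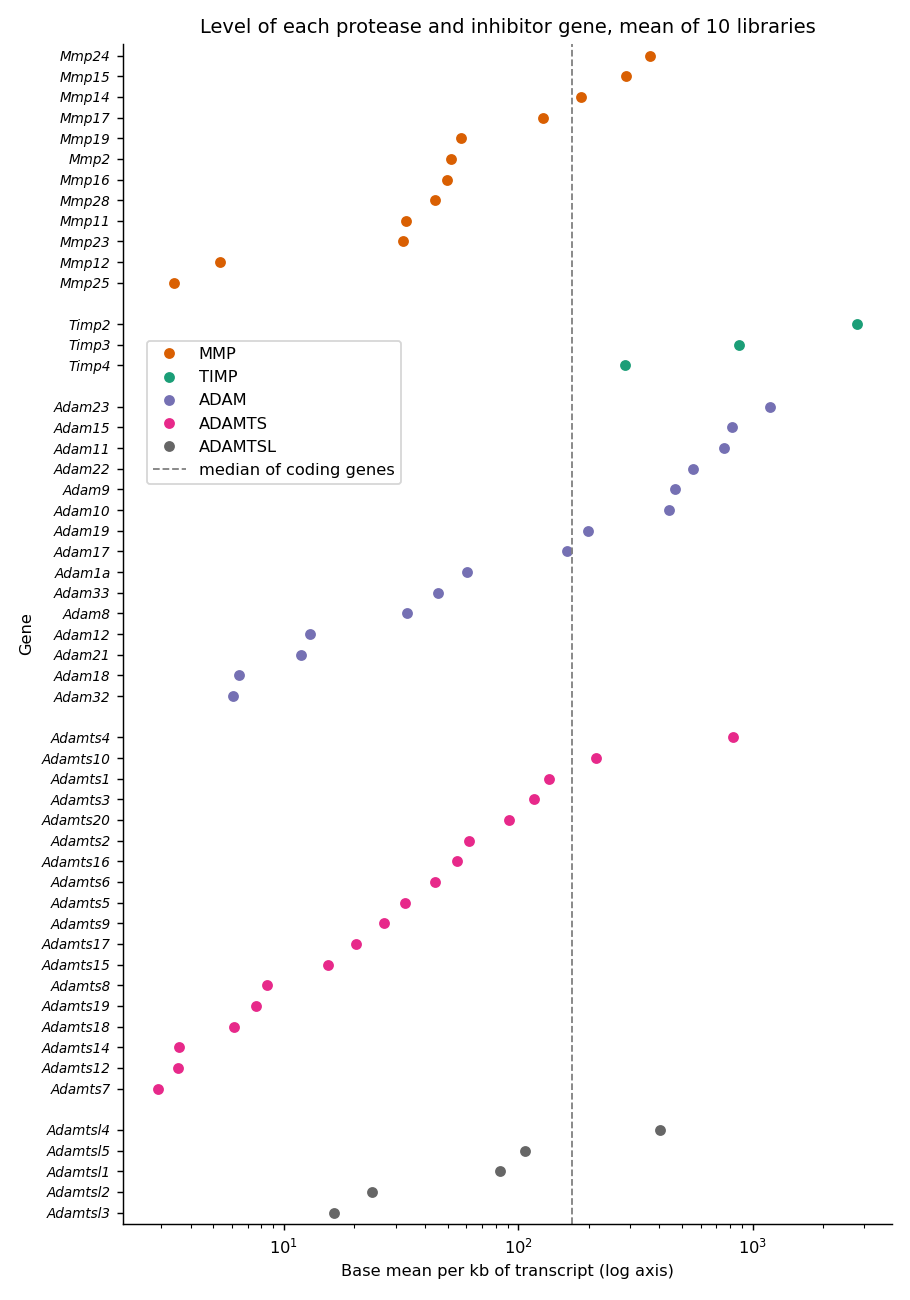
Level of each of the 53 genes, as the authors' base mean per kb of the longest transcript on a log axis, by family and sorted within it. Each point is 1 mean over 10 libraries without an error, and the dashed line is the median of coding genes (169.6), above which all 3 TIMP genes, 7 ADAM genes and 3 MMP genes lie.

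**Figure D2:**
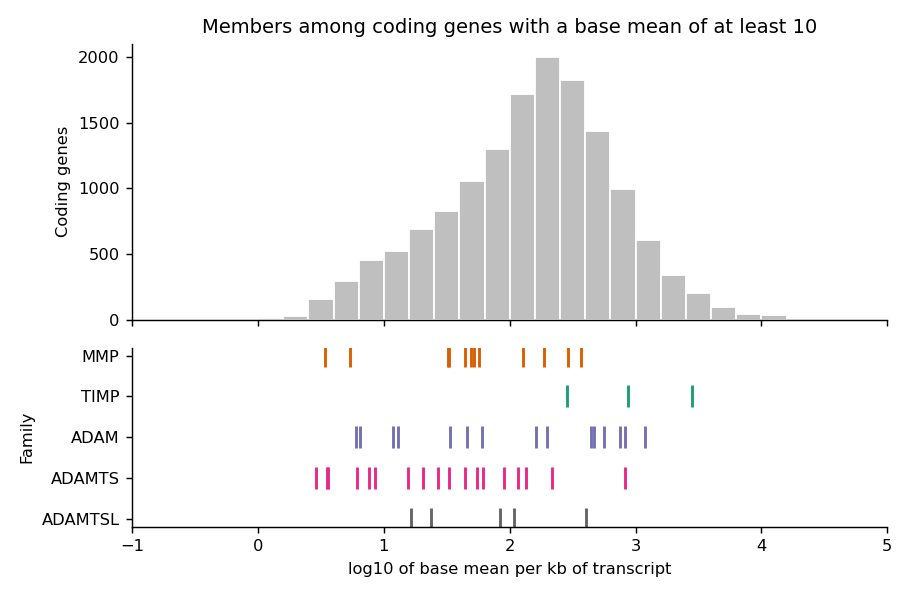
Upper panel, number of coding genes by log10 of the base mean per kb of transcript. Lower panel, the members of each family on the same axis, 1 mark a gene: the TIMP marks lie to the right of the peak of the histogram, and the ADAMTS marks lie mostly to its left, with 2 of 18 above the median of coding genes.

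The inhibitors were the most abundant family per gene. The base mean of Timp2 was 10394, that of Timp3 was 4139.6 and that of Timp4 was 1572. Their levels per kb were 2802, 877 and 286, at percentiles 97.7, 89.3 and 65.2 of coding genes. Timp2, which blocks MMPs and also helps Mmp14 to activate the Mmp2 proenzyme, was thus 3.20 times as high per kb as Timp3, the matrix-bound inhibitor of ADAM17 and of aggrecanases, and 9.80 times as high as Timp4. The 3 coding sequences are of similar length (660, 633 and 672 bases), and their proteins share 45.9% (Timp2 and Timp3), 49.5% (Timp2 and Timp4) and 46.6% (Timp3 and Timp4) of aligned residues. Per kb of coding length the order was the same, with Timp2 2.41 times as high as Timp3. Both Timp3 (chr10:86300372-86349506) and Timp4 (chr6:115241892-115252205) lie within synapsin genes on the opposite strand, Syn3 (base mean 2686) and Syn2 (base mean 6201), and share exonic bases with them. Further inhibitors outside the TIMP family were listed with base means of 351 for Reck, a membrane-anchored MMP inhibitor (77.2 per kb), and 2868 for A2m, a broad protease trap (623 per kb).

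The MMP members were mostly low, and the highest ones are anchored to the membrane. Mmp24 (chr2:155775342-155818366), a membrane-type MMP known from neurons, had a base mean of 1578 and a level of 367 per kb. Its exons overlap with those of BC029722 on the opposite strand (base mean 1617). The strand setting of the counting is not stated, so the level of Mmp24 is uncertain. Mmp15 (chr8:95352268-95375080) had 1481 and 288 per kb, and Mmp14 (chr14:54431612-54445364), the activator of the Mmp2 proenzyme, 602 and 186 per kb. These are the 3 MMP genes above the median of coding genes. Of the other membrane-type genes, Mmp17, whose protein is held by a lipid anchor, had a level of 127, Mmp16 of 49.6 and Mmp25 of 3.41, the lowest of the family. The 6 membrane-type genes made up 82.1% of the summed MMP level, and 87.9% of the summed MMP base mean.

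None of the other 6 MMP members reached the median level of coding genes. Mmp19 had a level of 56.7, the gelatinase Mmp2 had 51.6, Mmp28 had 44.3, Mmp11 had 33.2, Mmp23 had 32.1, and the macrophage elastase Mmp12 had 5.37. Mmp14 was 3.60 times as high per kb as Mmp2, whose proenzyme it activates. A cysteine switch, the propeptide sequence that keeps the zinc covered, was found by its consensus letters in 6 MMP members (Mmp2, Mmp12, Mmp14, Mmp15, Mmp16 and Mmp24). The letters searched were proline, arginine, cysteine, glycine, any residue, proline and aspartate. Variants of these letters were not searched for, so the other MMP members may also have a switch. Proprotein convertases, which remove the propeptides of some MMPs, were listed as well. Pcsk6 had a base mean of 1334 (303 per kb), Furin of 784 (137 per kb), Pcsk7 of 688 (177 per kb) and Pcsk5 of 201 (27.9 per kb).

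Set against each other, the 3 TIMP genes had a summed level of 3965 per kb and the 12 MMP genes 1245 per kb, a ratio of 3.19. Without the highest gene of each family the ratio was 1.32. These are ratios of RNA, and Mmp9 and Timp1 are not in them.

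Most MMP genes below the minimum sit in 1 place. A run on chromosome 9 (chr9:7272514-7699585) holds 10 neighbouring Mmp genes, of which only Mmp12 (base mean 24.0) was a member. In the same run, Mmp13 was listed with a base mean of 5.66, Mmp8 with 4.72, Mmp10 with 0.119 and Mmp3 with 0.0918, and Mmp1a (annotated as a polymorphic pseudogene), Mmp1b, Mmp7, Mmp20 and Mmp27 at 0. Outside the run, Mmp21 was listed with 0.566. The stromelysins Mmp3 and Mmp10 thus had pooled means under 1, while the collagenases Mmp8 and Mmp13 lay between them and the lowest membrane-type member, Mmp25 (base mean 15.5). Uniquely mapped reads alone were counted, so a low value of a gene with a near-identical copy, as Mmp1a and Mmp1b may be, is uncertain.

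The ADAM family held the largest share of the summed level, 38.8%, and its members with the zinc-binding motif held 47.3% of the ADAM level per kb and 37.1% of the ADAM base mean. The 3 highest motif-less genes are neuronal receptors for the secreted LGI proteins. Adam23 (chr1:63445891-63596276) had a base mean of 7608 and a level of 1184 per kb, second of all members and at percentile 92.8. Adam11 (chr11:102761439-102780262) had 3836 and 752 per kb, and Adam22 (chr5:8072352-8368160), which anchors LGI1 at synapses and LGI4 in the peripheral nerve, 5155 and 558 per kb. In sum they made up 52.4% of the ADAM level (62.6% per kb of coding length and 62.8% without a length) and 20.3% of the level of all members.

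Adam11, Adam22 and Adam23 resemble each other more than they resemble Adam9, Adam10 and Adam17, the sheddases that were compared. Adam11 and Adam22 were identical at 53.5% of aligned residues, Adam11 and Adam23 at 52.8%, and Adam22 and Adam23 at 48.9%. Adam10 shared 23.2% with Adam11, 23.1% with Adam22 and 23.1% with Adam23. Adam17 shared 19.8%, 20.8% and 23.6% with them in the same order. Adam9 was closer to them, with 30.8%, 27.9% and 31.2%, than to Adam10 (26.5%) or Adam17 (22.9%). The other shedding ADAMs were not compared. Genes of the proteins known to act with them were listed at levels from 269 to 3897 per kb. Among the ligands, Lgi3 had 2659 per kb, Lgi2 1150, Lgi4 419 and Lgi1 269. The Kv1 channel subunits Kcna1 and Kcna2 had 3897 and 1236, and Dlg4, the scaffold PSD-95, 1103. All 7 genes of this list lay above the median of coding genes.

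The 8 shedding ADAMs made up 45.8% of the ADAM level. Adam15 (chr3:89338542-89349996) was the highest, with a base mean of 3199.9 and a level of 818 per kb. Adam9 (chr8:24949611-25016927) had 1881 and 465 per kb. Adam10 (chr9:70678997-70780229), the main alpha-secretase of the amyloid precursor protein, had 2020.3 and 439.9 per kb. Adam17 (chr12:21323509-21373632), which releases TNF and its receptors, had 722 and 162 per kb, just below the median of coding genes. Adam10 was 2.72 times and Adam15 5.06 times as high per kb as Adam17.

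Lower in this group, Adam19, a sheddase of neuregulin, had a base mean of 1272 (199 per kb), Adam33 of 163 (45.6 per kb), Adam8, known from myeloid cells, of 123 (33.5 per kb) and Adam12 of 99.7 (13.0 per kb). The last 4 ADAM members are known chiefly from male germ cells: Adam1a had a level of 60.7, Adam21 of 11.8, Adam18 of 6.42 and Adam32 of 6.04. Their summed level was 1.79% of the ADAM level. Adam1a shares exonic bases with Mapkapk5 on the same strand (base mean 699), so its reads are uncertain. Adam32 and Adam18, with base means of 14.8 and 15.2, were among the members nearest to the minimum. Just below it were Adam4 with 8.11, Adam5 with 6.29 and Mmp13 with 5.66.

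Genes that mature or guide the 2 best known sheddases were listed beside them. The TspanC8 tetraspanins, which carry ADAM10 to the cell surface, ranged from Tspan17 (base mean 1105, 697 per kb) over Tspan14 (879, 355 per kb), Tspan5 (1871, 281 per kb), Tspan15 (893, 246 per kb) and Tspan33 (471, 132 per kb) to Tspan10 (1.05). Tspan10 was thus the single gene of this list below a base mean of 10. Of the iRhoms, which carry ADAM17, Rhbdf1 had 411 (80.7 per kb) and Rhbdf2, the form known from myeloid cells, 60.7 (15.7 per kb).

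Substrates of the sheddases spanned a wide range. Prnp, the prion protein, had a level of 6434 per kb, App, the amyloid precursor protein, 5541, and the chemokine Cx3cl1 1696. Lrp1 had 1292, the N-cadherin gene Cdh2 425, Tnfrsf1a 264, Nrg1 216, Notch1 137, Notch2 86.5 and Tnfrsf1b 48.6. Tnf, a substrate of ADAM17, had a base mean of 2.26. App and Prnp each had a higher level than any protease or inhibitor of the group.

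**Figure D3:**
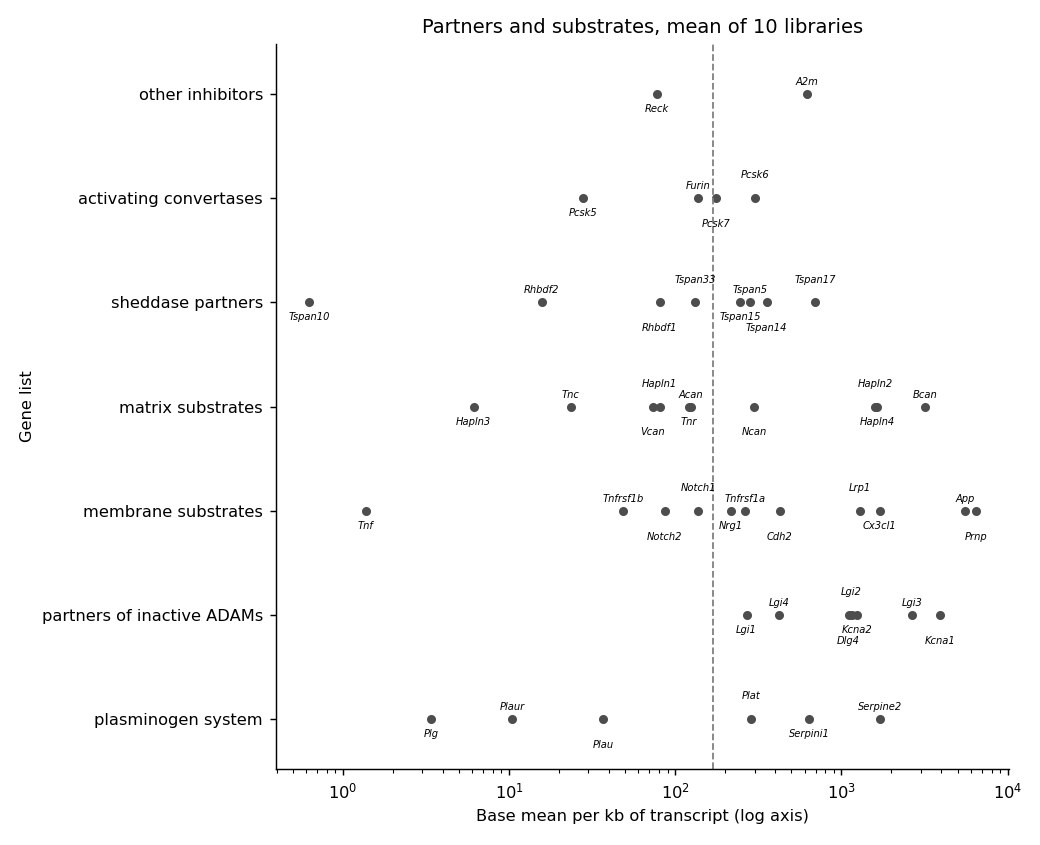
Level of genes of 7 lists of inhibitors, activators, partners and substrates, as the authors' base mean per kb of transcript on a log axis. Each point is 1 mean over 10 libraries, and the dashed line is the median of coding genes (169.6): all 7 partners of the motif-less ADAMs lie to its right, and Tnf and Tspan10 at the far left.

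Nearly all ADAMTS genes of the table were members (18 of 19), and 1 of them, Adamts4, held 49.4% of the level of the family. Adamts4 (chr1:171250421-171260637), an aggrecanase known from oligodendrocytes, had a base mean of 3621 and a level of 825 per kb, the highest of the members after Timp2, Adam23 and Timp3. Adamts10 (chr17:33524204-33553782), which binds fibrillin microfibrils, followed with 886 and 215 per kb, and Adamts4 was 3.84 times as high per kb. These were the 2 ADAMTS members above the median of coding genes. Exons of Adamts4 overlap with those of another listed gene. The libraries were stranded, but the strand setting of the counting is not stated in the sources used here, so the reads of overlapping genes on opposite strands could not be told apart if strand was ignored, and the level of Adamts4 is uncertain.

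The 7 proteoglycan-cleaving ADAMTS genes made up 67.9% of the level of this family. Besides Adamts4, Adamts1 (base mean 659.9) had 135 per kb and Adamts20 had 90.9. Adamts5, the other main aggrecanase, had a base mean of 356 and a level of 33.0, Adamts9 a level of 26.7, Adamts15 of 15.5 and Adamts8 of 8.44. Adamts4 was thus 25.0 times as high per kb as Adamts5, 11.2 times per kb of coding length and 10.2 times without a length. Adamts1 and Adamts5 are neighbours on chromosome 16 (chr16:85793827-85901828), and Adamts15 and Adamts8 on chromosome 9 (chr9:30899155-30963838).

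Of the procollagen N-proteinases, Adamts3 had a level of 117, Adamts2 of 61.7 and Adamts14 of 3.57. The other members of the family were Adamts16 (54.7), Adamts6 (43.9), Adamts17 (20.3), Adamts19 (7.58), Adamts18 (6.12), Adamts12 (3.54) and Adamts7 (2.91), all in levels per kb. Adamts13, which cleaves von Willebrand factor and is made mainly in the liver, was the single ADAMTS gene below the minimum, with a base mean of 4.67.

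The proteoglycans that ADAMTS enzymes cut, with link proteins and tenascins of the same matrix, were represented by 10 genes, all with a base mean over 10. Bcan, the proteoglycan brevican, had a level of 3173 per kb, Ncan, neurocan, 298, Acan, aggrecan, 125, and Vcan, versican, 73.2. Link proteins, which tie these proteoglycans to hyaluronan, differed widely: Hapln4 had 1646, Hapln2, known from nodes of Ranvier, 1597, Hapln1 80.8 and Hapln3 6.13. The tenascin genes Tnr and Tnc had 121 and 23.6. Brevican was thus the most abundant proteoglycan RNA of this list, and a relation of its level to that of any ADAMTS gene was not tested.

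All 5 ADAMTS-like genes of the table were members, and none held a zinc-binding site. Adamtsl4 (chr3:95676201-95687917), a fibrillin-binding protein, had a base mean of 1624 and a level of 402, 3.75 times that of Adamtsl5 (107). Adamtsl1 had 83.3, Adamtsl2 23.8 and Adamtsl3 16.4. Per kb of coding length Adamtsl4 was 1.73 times as high as Adamtsl5.

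By family, the ADAM genes held 38.8% of the summed level, the TIMP genes 32.3%, the ADAMTS genes 13.6%, the MMP genes 10.1% and the ADAMTSL genes 5.16%. The order of the first 2 families depends on the length used. Per kb of coding length the TIMP share was 58.9% and the ADAM share 25.0%, since TIMP genes have short coding sequences in long transcripts. Without a length the ADAM share was 44.7% and the TIMP share 27.2%.

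**Figure D4:**
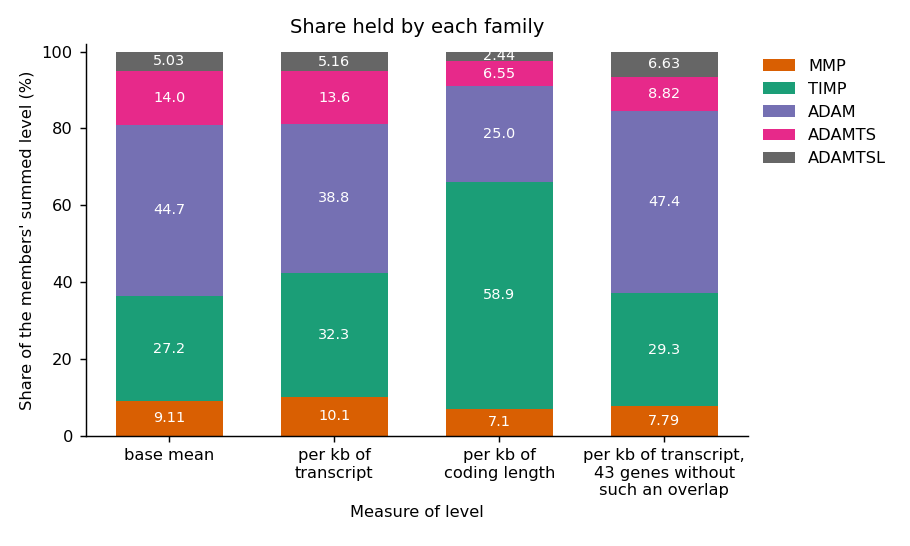
Share (%) of the members' summed level held by each family, by 4 measures: base mean, base mean per kb of the longest transcript, per kb of coding length, and per kb of transcript for the 43 genes whose exons do not overlap with a gene whose base mean is 10 or more. ADAM genes have the largest share in 3 of the 4 bars, and TIMP genes (58.9%) in the one per kb of coding length.

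Members with the zinc-binding motif numbered 34 of 53 and held 33.1% of the summed level. With any residue in place of the glycine, which adds 6 ADAMTS genes, 40 members held 42.1%. Hence 57.9% of the level was in genes for proteins without this site: the TIMP genes, the 5 motif-less ADAM genes and the ADAMTSL genes. This share was computed per kb of transcript only and depends on the length used. Per kb of coding length the TIMP genes alone held 58.9%. Among the 29 genes below the minimum with an annotated protein, 21 had the site and 8 did not.

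**Figure D5:**
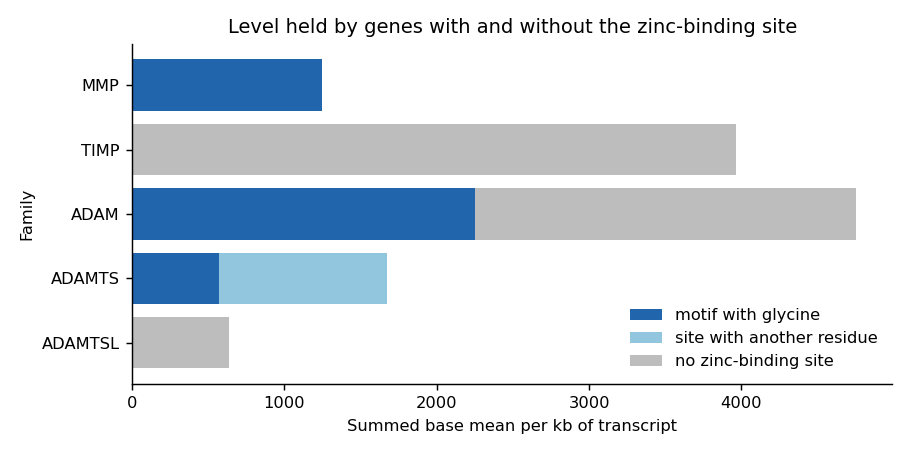
Summed level (base mean per kb of transcript) of the members of each family, divided by the zinc-binding site of their proteins: motif with glycine, site with another residue in its place, or no site. All of the MMP level lies in genes with the motif, the ADAM level is 47.3% in such genes, and none of the TIMP or ADAMTSL level is.

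Exons of 10 members overlapped with those of another gene whose base mean was 10 or more. Beside Timp3, Timp4, Adamts4 and Adam1a these were Mmp24 with BC029722 (1617), Mmp11 with Chchd10 (2778), Mmp19 with Tmem198b (389), Mmp28 with 1700020L24Rik (72.0), Adam17 with Iah1 (245) and Adamts7 with Tbc1d2b (785), where the number is the base mean of the overlapping gene. For Mmp11 and Adamts7 the overlapping gene is far higher than the member (base means of 75.9 and 15.6). An overlapping gene also had the higher base mean beside Timp4, Adamts4, Adam1a, Mmp19 and, by little, Mmp24 (1578). How many bases are shared is not given here. Without the 10 genes, the ADAM share was 47.4% and the ADAMTS share 8.82%.

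The tissue label was checked against marker genes. Oligodendrocyte (Mbp, base mean 319615), astrocyte (Gfap, 56290) and neuron markers (Snap25, 59050) were high, all 4 motor neuron markers were listed (37.3 for Mnx1 to 1169.8 for Slc18a3), and microglial ones ranged from 480.0 to 3041. Hoxa10, Hoxc10 and Hoxd10, genes of the caudal cord, had base means of 235, 489 and 152, and the forebrain genes Tbr1 and Neurod6 had 3.604 and 78.9. Endothelial (631 to 2253) and fibroblast or mural markers (439 to 1255), from which matrix proteases are also known, were present. So were a Schwann cell marker (Prx 484) and muscle markers (108 to 251), while dorsal root ganglion markers ranged from 8.80 to 86.9. The haemoglobin genes Hbb-bs, Hba-a1 and Hba-a2 were listed at 0. Uniquely mapped reads alone were counted, so a 0 for genes with near-identical copies, as these may be, is uncertain. The part of each cell type in the level of a protease or inhibitor gene was not tested, and in bulk tissue fewer cells of a type and less RNA per cell cannot be told apart.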

How the data were processed

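RNA of the spinal cord of 5 WT and 5 SOD1 G93A female mice was sequenced. According to the methods and the submitters' processing notes, the authors filtered reads with Fastp, aligned them to mm10 with HISAT2 2.1.0, used featureCounts 2.0.2 to count the reads of each gene that mapped to 1 place and compared the groups with DESeq2. The authors deposited 1 table. Its base mean is a normalised signal, the mean over all libraries of counts divided by size factors, and it was used as the authors' mean. Its other 5 value columns hold the authors' comparison (log2 fold change, standard error, Wald statistic, p-value and adjusted p-value) and were not used here, so no comparison of the genotypes was made. The annotation and strand setting of the counting, and the depth of the libraries, are not given in the sources used here.

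Symbols were matched to GENCODE M21 (24363 genes; all 53 members) for position, transcript length and coding sequence. The longest transcript may not be the main one in the cord. Proteins were translated from GENCODE, because RefSeq proteins were not used here, and aligned with MAFFT 7.526. Named were, in each family, up to 8 members with the highest levels and the lowest, those nearest to the minimum, ADAM and ADAMTS members without the motif, and fixed lists of partners. Remaining members were added so that each is accounted for. Subgroups were set after levels were seen. Some genes of the lists are not reported here. Members and lists were chosen with earlier results of these data known. The sequence code was tested on 200 made-up transcripts, and recovered 200. Alternatives were a minimum of 5 or 50, no length or coding length, other motifs, and leaving out genes. Python 3.11.15 with pandas 2.3.3 and Biopython 1.88 was used.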

Additional observations from a re-analysis of the deposited data

How the results depend on the processing

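Because the table used here gives 1 mean per gene over both genotypes, leaving out single mice and a replicate block were not run. No paired analysis was possible because values of single libraries were not used. The number of members was 56 with a minimum base mean of 5 and 41 with 50, and in no family did it move by over 1.5 times. The 10 highest members per kb were also the 10 highest without a length, and 8 of them were among the 10 highest per kb of coding length.

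The shares of the summed level moved with the length used. Without a length, the MMP, TIMP, ADAM, ADAMTS and ADAMTSL shares were 9.11%, 27.2%, 44.7%, 14.0% and 5.03%. Per kb of coding length they were 7.10%, 58.9%, 25.0%, 6.55% and 2.44%, so the TIMP genes and not the ADAM genes came first. Without the 10 members whose exons overlap with a gene whose base mean is 10 or more, an alternative chosen after seeing the data, they were 7.79%, 29.3%, 47.4%, 8.82% and 6.63%. The share of members with the zinc-binding motif was 30.8% without a length and 18.6% per kb of coding length. It was 42.1% when only the first 2 histidines and the glutamate were required, and 42.1% with any residue for the glycine, a form chosen after seeing the data. The ratio of TIMP to MMP levels was 2.99 without a length, 8.29 per kb of coding length, 1.32 without the highest gene of each family and 3.77 without those 10 members. Depth limits the low members: a base mean near 10 stands for about 10 counts in a library of average depth, and no interval could be given.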

Other observations

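The plasminogen system, which works on the same matrix and can activate MMP proenzymes, was listed with 2 of its inhibitors above its activating proteases. Serpine2, an inhibitor of thrombin and of plasminogen activators, had a base mean of 5811 and a level of 1713 per kb, and Serpini1, the neuronal inhibitor neuroserpin, 2623 and 641 per kb. Plat, the tissue plasminogen activator, had 1161 and 287 per kb, and Plau, the urokinase activator, 86.1 and 36.8 per kb. The receptor Plaur had a base mean of 20.99 and plasminogen itself, Plg, 9.40. As with the TIMP genes beside the MMP genes, these are values pooled over WT and SOD1 G93A mice, without an error or a test.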
